A study of Mus musculus with 6 samples.

Results

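Pigment cells carry ion channels and transporters that set the inside of the melanosome, the organelle in which melanin is made. Here 6 mouse genes of this kind were followed: Oca2, Slc45a2, Slc24a5, Trpm1, Kcnj13 and Atp7a. Every probe set that the platform annotation pairs with one of them was taken, over all 6 arrays of the study. For 5 of the 6 genes this gave 10 of the 45101 probe sets on the array. Slc24a5, a sodium, potassium and calcium exchanger of pigment cells, was paired with none and was not analysed here. The genes were selected on their signals on these same 6 arrays, which were known when the list was made. All values below are therefore a description, and nothing was tested.

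RNA came from melan-a cells, an immortal melanocyte line that the labels trace to epidermal melanoblasts of C57BL/6 embryos. Every group carries delta-BRAF-ER, per the labels. This is a constitutively active BRAF kinase fused to an oestrogen receptor domain, so that adding tamoxifen turns it on. There were 6 groups with 1 array each: activated BRAF with ZEB2, with SNAIL2, with TWIST1 or with ZEB1, activated BRAF alone (BRAF-on) and BRAF not activated (BRAF-off). ZEB2, SNAIL2, TWIST1 and ZEB1 are transcription factors of embryonic development. The promoters that drive the introduced genes, the time after activation and any pooling of cultures are not given in the sources used here, and none of the labels describes drug-treated cells lacking the construct. Tamoxifen itself, the culture and active BRAF cannot be told apart.

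Tyrosinase, which starts melanin synthesis, works poorly in an acid organelle. Oca2 is a melanosomal chloride channel protein and Slc45a2 a proton-coupled transporter, and both raise melanosome pH. Mice without a working Oca2 are known as pink-eyed dilution and those without Slc45a2 as underwhite. Atp7a pumps copper, the metal of tyrosinase, into the secretory pathway and melanosomes, and its mutants are the mottled mice. Trpm1, first described as melastatin, is a cation channel of melanocytes and retinal bipolar cells, and the microRNA gene Mir211 lies inside it. Kcnj13 is an inward rectifier potassium channel known from retinal pigment epithelium and, in zebrafish, from pigment stripes. MITF, the regulator of melanocyte differentiation, is known to activate Trpm1 and several other pigment genes through DNA letters of the E-box type.

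No promoter of Slc45a2 was among the RefSeq promoters used, so those of the other 4 measured genes are shown. These 4 genes differ in how far their signals ranged. For 3 of these genes the signal ranged over at least 16.7-fold across the arrays, and for Atp7a over 1.56-fold on its brighter probe set. Each is the 250 bases before a transcription start in RefSeq (GRCm38.p6), written 5′ to 3′ on the gene's own strand. Capitals mark every E-box, searched as CANNTG. Trpm1 has 2 annotated starts.
Oca2 (chr7:56239509-56239758, plus strand): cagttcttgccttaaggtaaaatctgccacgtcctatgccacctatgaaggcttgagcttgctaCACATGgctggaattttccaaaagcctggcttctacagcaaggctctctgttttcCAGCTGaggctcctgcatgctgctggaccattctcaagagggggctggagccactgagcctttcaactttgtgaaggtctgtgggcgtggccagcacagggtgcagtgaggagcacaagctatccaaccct
Trpm1, upstream start (chr7:64153585-64153834, plus strand): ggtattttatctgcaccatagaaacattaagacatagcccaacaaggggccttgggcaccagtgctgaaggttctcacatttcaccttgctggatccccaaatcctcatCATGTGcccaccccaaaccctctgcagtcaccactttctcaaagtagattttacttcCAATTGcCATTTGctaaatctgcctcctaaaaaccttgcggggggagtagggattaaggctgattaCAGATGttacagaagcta
Trpm1, downstream start (chr7:64185209-64185458, plus strand): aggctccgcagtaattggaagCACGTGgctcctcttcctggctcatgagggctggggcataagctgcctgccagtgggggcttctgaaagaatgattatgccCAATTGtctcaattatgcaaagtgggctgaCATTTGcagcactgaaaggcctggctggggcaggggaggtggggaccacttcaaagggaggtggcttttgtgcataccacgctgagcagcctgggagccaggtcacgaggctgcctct
Kcnj13 (chr1:87394730-87394979, minus strand): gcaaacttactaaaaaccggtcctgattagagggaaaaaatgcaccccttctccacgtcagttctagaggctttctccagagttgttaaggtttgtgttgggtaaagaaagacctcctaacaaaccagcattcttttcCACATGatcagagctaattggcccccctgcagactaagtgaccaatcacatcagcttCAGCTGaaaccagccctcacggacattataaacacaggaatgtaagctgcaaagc
Atp7a (chrX:106026974-106027223, plus strand): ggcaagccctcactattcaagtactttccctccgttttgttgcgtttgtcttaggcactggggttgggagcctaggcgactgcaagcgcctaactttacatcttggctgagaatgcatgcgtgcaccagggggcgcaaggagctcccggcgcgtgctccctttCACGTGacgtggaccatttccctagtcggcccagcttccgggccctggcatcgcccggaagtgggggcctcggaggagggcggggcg

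An E-box of any kind was present in all 6 promoters found for the members. These include Slc24a5 but not Slc45a2. Of 32851 promoters of the same length 66.2% held an E-box. CATGTG, read on both strands and known to be bound by MITF, occurred once in the promoters of Oca2, Kcnj13 and Slc24a5 and once before the upstream start of Trpm1, against 12.3% of all promoters. CACGTG, also bound by MITF, occurred once before the downstream start of Trpm1 and once in Atp7a, against 6.02% of all promoters. CAGGTG, the letters bound by SNAIL and ZEB proteins, occurred in 0 of the 6 promoters and in 17.2% of all. All 3 are special cases of CANNTG. These matches describe the letters of short windows and say nothing about which protein is bound there.

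Signals below are linear MAS5 values, and a floor of 63.7, the median of all values on the arrays, marks what was taken as measurable. A fold in which 1 array lay under the floor is given as a bound. With 1 array a group there is no spread, so genes were counted by size alone, at 2-fold or more, and the number of arrays limits the precision. Between 10611 and 11269 of 18193 genes reached the floor on an array. Of 9 probe sets for the introduced factors at or above the floor, 0 were 2-fold higher on the factor's own array than in BRAF-on, and their folds ran between 0.352 and 1.70. The files do not say whether these probe sets would detect the introduced copies, so the arrays are called by their labels. Melanocyte markers were present: all 10 of 10 reached the floor on every array but that labelled TWIST1, where 3 did.

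Across arrays the deposited signals of the members shared their highest array. The array labelled SNAIL2 was the highest for 10 of 10 probe sets. Taking SNAIL2, ZEB2, BRAF-off and BRAF-on alone, 9 of 10 followed that order. The exception among these arrays was a dim probe set of Trpm1 that lay under the floor in both BRAF-on and BRAF-off. On both Atp7a probe sets TWIST1 (1873 and 650) lay between SNAIL2 and ZEB2 (1718 and 610). The array labelled TWIST1 was the lowest for 7 of 10 probe sets, and only the 2 Atp7a probe sets reached the floor there. The top of this order depended on the scaling: scaled to control RNA with a poly-A tail, described with the SNAIL2 array, 4 of the 10 probe sets were highest with SNAIL2, 4 with ZEB2 and the 2 of Atp7a with TWIST1.

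**Figure D1:**
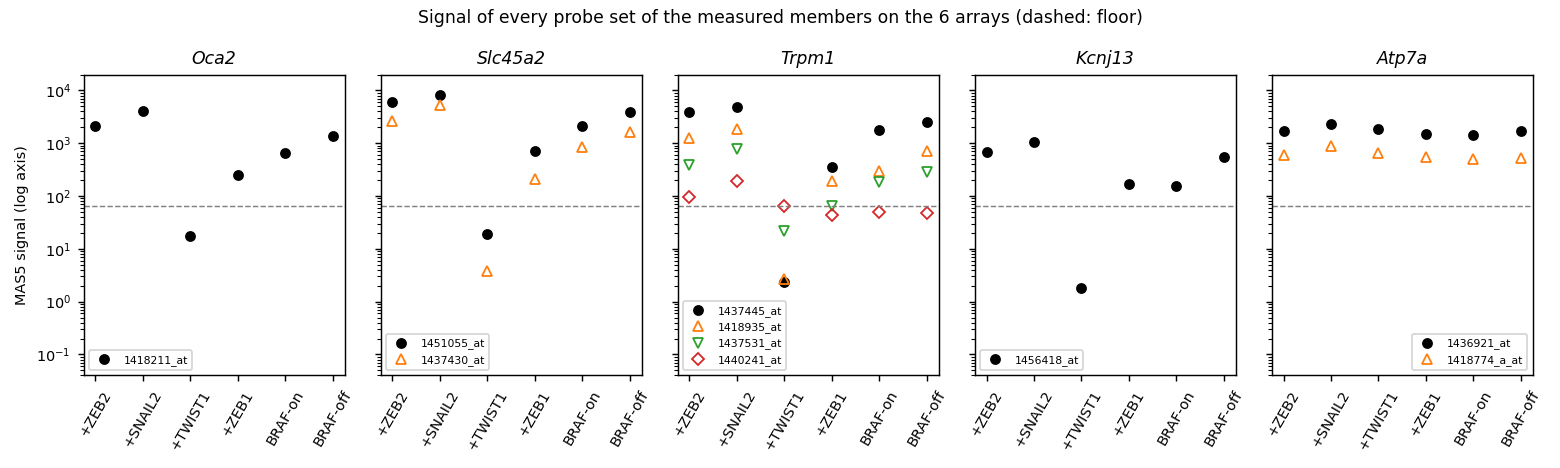
MAS5 signal (log axis) of the 10 probe sets on the 6 arrays, 1 panel per gene; filled points are the probe set used for the gene, open ones its other probe sets, the dashed line is the floor of 63.7. Oca2, Slc45a2, Trpm1 and Kcnj13 run over wide ranges with TWIST1 under the floor, while the Atp7a probe sets stay within 1.56-fold and 1.75-fold.

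Oca2 (probe set 1418211_at) had a signal of 2118 with ZEB2, 4105 with SNAIL2, 17.5 with TWIST1, 252 with ZEB1, 652 in BRAF-on and 1351 in BRAF-off. From the highest to the lowest array this was at least 64.4-fold. Neighbours in the order of arrays were 1.57-fold (ZEB2 over BRAF-off) to 2.59-fold (BRAF-on over ZEB1) apart, and the last step, ZEB1 over TWIST1, was at least 3.95-fold. The steps SNAIL2 over ZEB2 (1.94-fold) and ZEB2 over BRAF-off were under 2-fold.

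Slc45a2, on its brighter probe set (1451055_at), was at 6135 with ZEB2, 8144 with SNAIL2, 19.1 with TWIST1, 728 with ZEB1, 2128 in BRAF-on and 3900 in BRAF-off. The array order was that of Oca2. Its second probe set (1437430_at) read 2596 with ZEB2, 5359 with SNAIL2, 3.83 with TWIST1, 213 with ZEB1, 839 in BRAF-on and 1600 in BRAF-off. The probe sets shared the order of all 6 arrays and differed in size, with ranges of at least 128-fold and 84.1-fold.

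Trpm1 was at 3924 with ZEB2, 4953 with SNAIL2, 2.33 with TWIST1, 357 with ZEB1, 1787 in BRAF-on and 2483 in BRAF-off on its brightest probe set (1437445_at). Again the order was that of Oca2. The widest step with both arrays above the floor lay between BRAF-on and ZEB1, at 5.01-fold. Of the other 3 probe sets, those with 5 arrays above the floor kept this order, with BRAF-on 1.60-fold and 2.78-fold above ZEB1. The fourth was dim and passed the floor on 2 arrays, that labelled SNAIL2 at 192 and that labelled ZEB2 at 96.4.

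Kcnj13, with 1 probe set (1456418_at), was at 682 with ZEB2, 1061 with SNAIL2, 1.83 with TWIST1, 166 with ZEB1, 157 in BRAF-on and 542 in BRAF-off. ZEB1 and BRAF-on were 1.06-fold apart, while for Oca2, Slc45a2 and Trpm1 BRAF-on lay at least 2.59-fold above ZEB1 on the probe set used. The widest step of Kcnj13 with both arrays above the floor, 3.26-fold, lay between BRAF-off and ZEB1.

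Atp7a (1436921_at) was at 1718 with ZEB2, 2278 with SNAIL2, 1873 with TWIST1, 1463 with ZEB1, 1460 in BRAF-on and 1679 in BRAF-off. All 6 arrays lay within 1.56-fold on this probe set and within 1.75-fold on the second one, which read between 500 and 873. No neighbours in its order were 2-fold apart, and it is the member that stayed above the floor with TWIST1.

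In BRAF-on, Oca2, Slc45a2, Trpm1 and Kcnj13 had lower signals than in BRAF-off. In BRAF-on against BRAF-off, 2 of the 5 measured members were at least 2-fold lower, Kcnj13 (3.45-fold) and Oca2 (2.07-fold), and 0 were that much higher. Of all 11200 genes compared 0.384% were that much lower and 1.04% higher. Kcnj13 stood at rank 3 from the lowest. Slc45a2 was 1.83-fold lower (1.91-fold on its second probe set) and Trpm1 1.39-fold, with its other measured probe sets at 1.58-fold and 2.40-fold. Atp7a was at a log2 ratio of -0.20, and at 0.06 when the arrays were scaled to added control RNA. The median log2 ratio of the members was -0.87, beside -0.00170 over all genes. Oca2 sat near 2-fold: with the floor added as a pseudocount its log2 ratio was -0.98, which left Kcnj13 as the 1 member counted. With the floor at the 75th percentile Kcnj13 was at -0.19, which left Oca2 as the 1 member counted. Of 10 melanocyte markers 1 was 2-fold lower, Tyr (2583 against 5366), and all 10 lay below 0, with a median of -0.49. Scaled to the control RNA, 0 were 2-fold lower (Tyr at -0.79), Dct and Pax3 lay above 0 (0.05 each) and the median was -0.23.

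The array labelled ZEB2 had higher channels and transporters than BRAF-on. At least 2-fold higher were 4 of 5 members, against 1.76% of 11322 genes, and 0 were that much lower, against 0.583%. Kcnj13 was 4.34-fold higher, at rank 2 from the highest, Oca2 3.25-fold (rank 17), Slc45a2 2.88-fold (rank 32) and Trpm1 2.20-fold (rank 143). Atp7a was at a log2 ratio of 0.23, which turned to -0.20 when the arrays were scaled to added control RNA. That scaling put Trpm1 at 0.70, which left 3 members counted, and a floor at the 75th percentile left Kcnj13 at 0.52, also with 3 counted. The members' median was 1.53, beside -0.00483 over all genes. Trpm1 probe sets ran from 2.15-fold to 4.14-fold, with the dim one at 1.51-fold or more. All 10 melanocyte markers lay above 0, 4 of them by 2-fold, with a median of 0.98 (0.55 scaled to the control RNA, with Pax3 at -0.00307), and their part in the members' values was not tested.

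Set against BRAF-off, the array labelled ZEB2 had 0 of 5 members 2-fold higher or lower, where 1.02% of 11088 genes were higher and 0.325% lower. Oca2, Slc45a2 and Trpm1 were 1.57-fold, 1.57-fold and 1.58-fold higher there and Kcnj13 1.26-fold. The 4 members counted against BRAF-on are thus not counted against BRAF-off, and both comparisons use the same ZEB2 array.

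As deposited, the array labelled SNAIL2 had the highest signal of every measured member. Against BRAF-on 4 of 5 were at least 2-fold higher and 0 that much lower, where 5.61% of 11416 genes were that much higher and 6.42% lower. Kcnj13 was 6.76-fold higher (rank 7 from the highest), Oca2 6.30-fold (rank 11), Slc45a2 3.83-fold and Trpm1 2.77-fold. The second Slc45a2 probe set read 6.39-fold, and the Trpm1 probe sets with both arrays measured reached up to 6.17-fold. The brightest probe set thus gave the smallest fold in both genes. Atp7a was at a log2 ratio of 0.64, with its second probe set at 0.80. The members' median was 1.94, beside 0.06 over all genes. All 10 melanocyte markers lay above 0, 7 of them by 2-fold, with a median of 1.42. Scaled to control RNA, as given next, 5 of the 10 lay above 0 and the median was 0.07.

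Control RNA with a poly-A tail, added before amplification, read 2.55-fold higher on the array labelled SNAIL2 than on BRAF-on, on 24 of 24 probe sets. Scaled to it, the median of all genes with SNAIL2 moved by -1.24 on the log2 scale. Oca2 was then at a log2 ratio of 1.31 and Kcnj13 at 1.41, Slc45a2 at 0.59, Trpm1 at 0.12 and Atp7a at -0.71, so that Oca2 and Kcnj13 were the 2 members counted and Atp7a turned. With ZEB2 the same scaling gave 1.27 for Oca2, 1.69 for Kcnj13, 1.1 for Slc45a2 and 0.70 for Trpm1, so among the probe sets used for the genes SNAIL2 was then the highest array for Oca2 alone. The median of all genes was then -1.17, so each member stayed above it. The part of this difference in the members' values was not tested. On the other arrays the control RNA read between 0.880-fold and 1.42-fold of BRAF-on.

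Against BRAF-off, the array labelled SNAIL2 had Oca2 3.04-fold and Slc45a2 2.09-fold higher, 2 of 5 members, where 4% of 11149 genes were that much higher and 5.31% lower. Trpm1 (1.99-fold) and Kcnj13 (1.96-fold) lay just under that size on the probe set used. The other Trpm1 probe sets lay above it, at 2.57-fold, 2.75-fold and, for the dim one, at least 3.02-fold. After scaling to the control RNA, 0 members were 2-fold higher than in BRAF-off: Oca2 was at a log2 ratio of 0.52, Slc45a2 at -0.02, Trpm1 at -0.09 and Kcnj13 at -0.12.

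The array labelled TWIST1 had Oca2, Slc45a2, Trpm1 and Kcnj13 under the floor. Against BRAF-on, 4 of 5 members were at least 2-fold lower, where 2.02% of 11334 genes were, and 0 were that much higher, where 2.03% were. Slc45a2 was at least 33.4-fold lower (rank 7 from the lowest), Trpm1 at least 28.0-fold (rank 9), Oca2 at least 10.2-fold (rank 19) and Kcnj13 at least 2.47-fold. The bound for Kcnj13 is small because BRAF-on itself read 157, and with the floor at the 60th percentile it was at a log2 ratio of -0.24, which left 3 members counted. Against BRAF-off the same 4 were counted, where 2.61% of 11132 genes were 2-fold lower and 3.11% higher: Kcnj13 was at least 8.50-fold lower, Oca2 at least 21.2-fold, Trpm1 at least 39.0-fold and Slc45a2 at least 61.2-fold. Atp7a stood apart from them, at 1873 with TWIST1 and 1460 in BRAF-on, a log2 ratio of 0.36. The members' median was -3.35, beside 0.00256 over all genes.

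Melanocyte markers as a whole were low on that array, with a summed signal of 4981 with TWIST1 and 68242 in BRAF-on. Against BRAF-on 8 of 10 were at least 2-fold lower and 0 higher, with a median log2 ratio of -4.85 in floored signals. Mitf was at 245 with TWIST1 and 5036 in BRAF-on, while Sox10 (1941 against 2730) and Pax3 (2589 against 2546), other lineage regulators, stayed within 2-fold. Of the 7 fibroblast markers 6 reached the floor with TWIST1 and 4 in BRAF-on, with a summed signal of 15951 against 6710, and Lum was under it on all 6 arrays. Their part in the members' values was not tested, and in RNA from a whole culture fewer cells of a type and less RNA per cell cannot be told apart.

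The array labelled ZEB1 split the members. Against BRAF-on 3 of 5 were at least 2-fold lower and 0 higher, where 3.93% of 11614 genes were that much lower and 4.49% higher. Trpm1 was 5.01-fold lower, at rank 8 from the lowest, Slc45a2 2.92-fold (3.95-fold on its second probe set) and Oca2 2.59-fold. With the floor at the 75th percentile Oca2 was at a log2 ratio of -0.45, which left 2 members counted. Trpm1 probe sets disagreed in size: the others gave 1.60-fold and 2.78-fold. Kcnj13 was at a log2 ratio of 0.08 and Atp7a at 0.00353, and both lay below 0 (-0.42 and -0.50) when scaled to the control RNA. The members' median was -1.37, beside 0.07 over all genes. All 10 melanocyte markers lay below 0, 7 of them by 2-fold, with a median of -1.37.

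Against BRAF-off, the 4 members other than Atp7a passed 2-fold downwards with ZEB1, where 5.2% of 11508 genes were and 7.06% were higher. Trpm1 was 6.96-fold lower, Oca2 5.37-fold, Slc45a2 5.36-fold and Kcnj13 3.26-fold. Beside this, Kcnj13 was 3.45-fold lower in BRAF-on against BRAF-off, a comparison that uses the same BRAF-off array. Macrophage and leukocyte markers had a summed signal of 1169 with ZEB1 and 603 in BRAF-on, with 4 of the 7 (Ptprc, Adgre1, Aif1 and Tyrobp) under the floor on all 6 arrays, and their part was not tested.

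**Figure D2:**
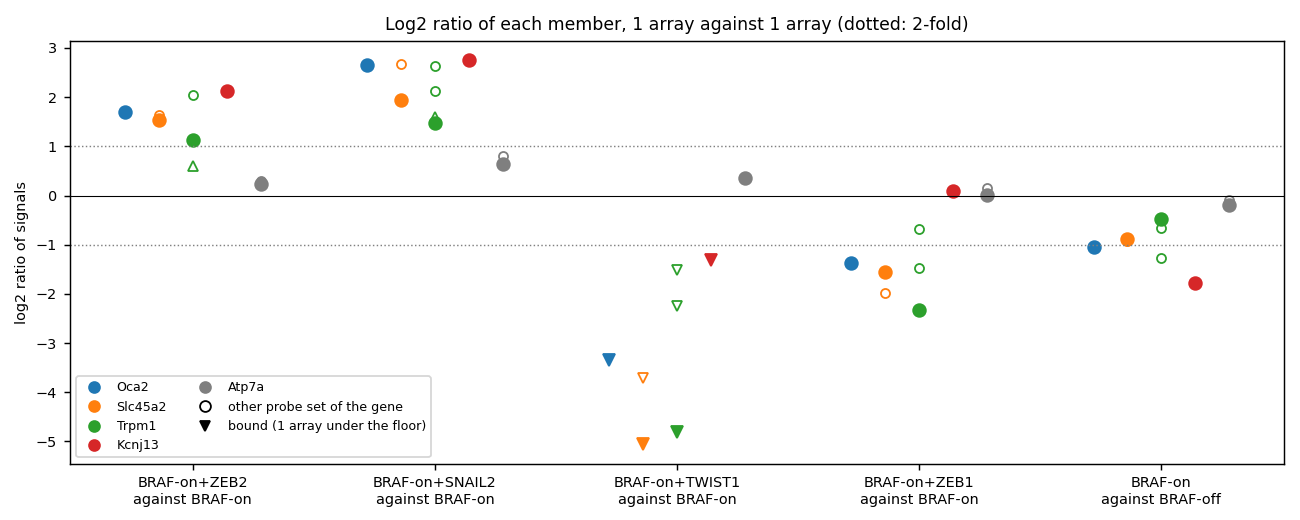
Log2 ratio (vertical axis) of each measured member in the 5 comparisons; filled symbols are the probe set used for a gene, open ones its other probe sets, triangles are bounds, and dotted lines mark 2-fold. On the probe set used, Oca2, Slc45a2, Trpm1 and Kcnj13 lie above 1 with ZEB2 and SNAIL2 and below -1 with TWIST1, with the dim Trpm1 probe set at a bound of 0.60 with ZEB2, while Kcnj13 is at 0.08 with ZEB1.

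Trpm1 and Kcnj13 are also genes of the retina. Of markers of retinal pigment epithelium, Rpe65, Best1 and Ttr were under the floor on all 6 arrays, and of the bipolar cell markers measured, Nyx was too. Rlbp1 was above it on all 6 arrays (between 105 and 190), and Lrat on 2, that labelled SNAIL2 (161) and BRAF-off (79.4). The bipolar marker Prkca, a kinase gene of many cell types, lay between 389 with TWIST1 and 763 with SNAIL2. The summed signal of the pigment epithelium markers was between 157 and 292 and that of the bipolar markers between 419 and 801. Their part in the members' values was not tested.

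Genes with the most similar pattern over the 6 arrays were taken by Pearson's r of floored log2 signals, among up to 3956 genes that range over at least 2-fold. The points share 1 normalization and the TWIST1 array lies far from the others, so r is a description. For Oca2 these were Mlph (0.999), a melanosome transport gene, Syt4 (0.999) and Tspan10 (0.998). For Slc45a2 they were Tyr (0.999), Cdhr4 (0.999) and the melanocortin receptor gene Mc1r (0.997). For Trpm1 the first was Mitf (0.999), followed by Adam12 (0.997) and Cited1 (0.996). Mitf read 11060 with ZEB2, 14255 with SNAIL2, 245 with TWIST1, 1410 with ZEB1, 5036 in BRAF-on and 7191 in BRAF-off, the order of Trpm1. Kcnj13 was nearest to Mob3b (0.995), Auts2 (0.990) and Pisd-ps3 (0.989). None of them is on the melanocyte marker list, and nor are those named for Oca2. Mob3b, like Kcnj13, was level between ZEB1 (146) and BRAF-on (149). For Atp7a, whose own range is under 2-fold, r reached 0.969 (Rab3il1).

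**Figure D3:**
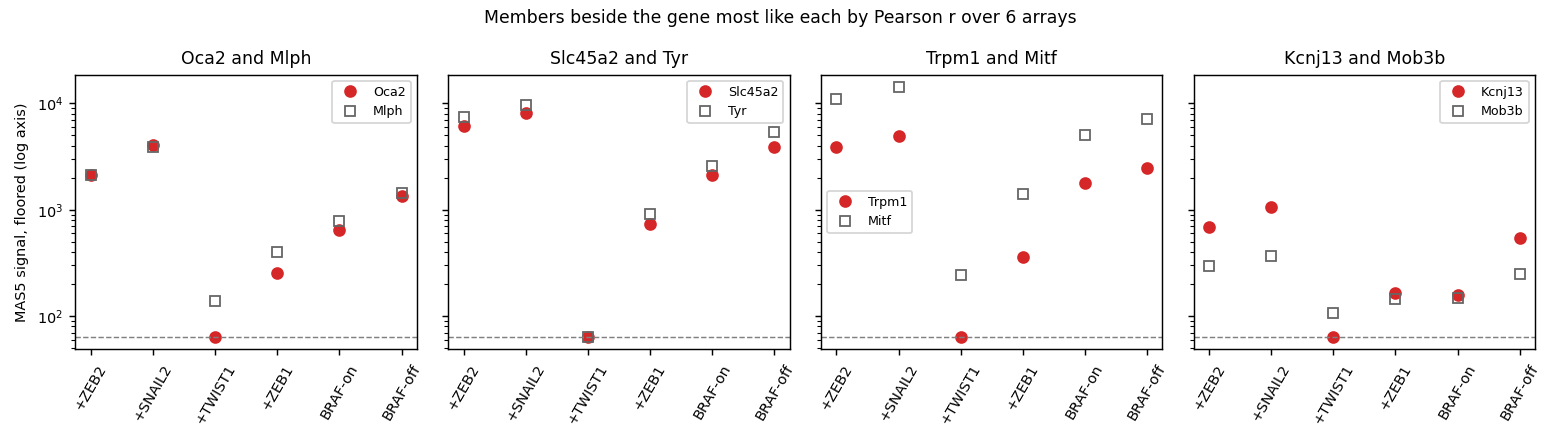
Floored MAS5 signal (log axis) of 4 members and of the gene most like each over the 6 arrays; the dashed line is the floor of 63.7. Slc45a2 and Tyr follow each other where above the floor, and with TWIST1 both lie under it and are raised to it. Trpm1 and Mitf keep the same order, and Kcnj13 and Mob3b are both level between ZEB1 and BRAF-on.

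Among each other, Oca2, Slc45a2 and Trpm1 had r between 0.979 and 0.992 over the 6 arrays. Kcnj13 had r of 0.965 with Oca2, 0.922 with Slc45a2 and 0.905 with Trpm1. Atp7a had r between 0.158 and 0.455 with the others, and between 0.724 and 0.897 without the array labelled TWIST1.

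Counts in the related lists below stand beside these shares of all genes in the deposited signals. Against BRAF-on, 5.61% were 2-fold higher with SNAIL2 and 6.42% lower, and with ZEB2 1.76% and 0.583%. With TWIST1 these shares were 2.03% and 2.02%, with ZEB1 4.49% and 3.93%. In BRAF-on against BRAF-off they were 1.04% and 0.384%. Directions in the lists depend on the scaling with SNAIL2. Scaled to the control RNA, the SNAIL2 medians were -0.60 for other channels and transporters, -1.04 for the proton pump, -1.56 for copper handling, -0.70 for paralogs and -0.81 for cargo delivery, beside -1.17 over all genes. In the 4 comparisons without the SNAIL2 array this scaling moved the median of all genes by -0.48 to 0.25, and in each of these 4 at least 1 list median turned sign. Counts changed too with SNAIL2, where the all-gene median of -1.17 means that most genes compared were 2-fold lower. Of 16 other channels and transporters 0 were then 2-fold higher and 5 lower, and of 18 pump genes 1 was higher and 9 lower. Of 14 copper genes 0 were higher and 10 lower. Of 11 paralogs 0 were higher and 5 lower, and of 20 cargo genes 0 were higher and 8 lower.

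Other channels and transporters of melanosomes and lysosomes numbered 19, of which 16 to 17 were compared. In BRAF-on against BRAF-off 0 were 2-fold apart, with a median of -0.04. With SNAIL2, 3 of 16 passed 2-fold upwards and 0 downwards, and the median was 0.52: the chloride and proton exchanger gene Clcn7 (1483 against 554 in BRAF-on), the cystine exporter gene Ctns (673 against 272) and the endolysosomal cation channel gene Tpcn1 (1022 against 486). Scaled to the control RNA their log2 ratios were 0.07, -0.04 and -0.28. With ZEB2, 1 of 17 was higher, the mucolipin channel gene Mcoln3 (at least 2.07-fold, but 0.62 on the log2 scale after scaling to the control RNA), with a median of 0.22. With TWIST1, 1 of 17 was higher, the cystine importer gene Slc7a11 (275 against 94.4), and the median was -0.07. With ZEB1, 1 of 17 was higher, Tmem175 (307 against 133), a lysosomal potassium channel gene (a log2 ratio of 0.70 after that scaling), and the median was 0.18. In the deposited signals no gene of this list was 2-fold lower in any of the 5 comparisons.

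The vacuolar proton pump acidifies melanosomes and lysosomes. Of its genes, 23 of 24 listed had a probe set and 18 to 19 were compared. With SNAIL2, 4 of 19 pump genes passed 2-fold upwards and 0 downwards, and the median was 0.36. They were Atp6v0a1 (1294 against 203 in BRAF-on, 6.37-fold), Atp6v0b (5673 against 2147), Atp6v0d1 (9200 against 3882) and Atp6v0d2 (144 against 58.9, under the floor). Scaled to the control RNA, Atp6v0a1 was at a log2 ratio of 1.32, Atp6v0b at 0.05 and Atp6v0d1 at -0.10, and Atp6v0d2 was under the floor on both arrays. Atp6v0a1, a membrane subunit, was also higher with ZEB2 (457 against 203, at a log2 ratio of 0.74 scaled to the control RNA, where 0 of 18 were 2-fold higher) and, at 63.4 against 203, at least 3.19-fold lower with TWIST1, the 1 of 18 pump genes lower there. The medians were 0.27 with ZEB2, -0.15 with TWIST1 and 0.31 with ZEB1, where 0 of 19 were 2-fold apart. With BRAF activation 0 of 18 were, with a median of -0.07.

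Copper handling genes were listed because of Atp7a. With BRAF activation, ZEB2 and TWIST1, 0 of 14 or 15 were 2-fold apart, with medians of 0.11, -0.21 and -0.04. With SNAIL2 the median was -0.29, with the copper importer gene Slc31a1 2-fold higher (2160 against 1037 in BRAF-on, though at a log2 ratio of -0.29 scaled to the control RNA) and Cox17, a copper chaperone of mitochondria, and Steap2, a metal reductase, lower (2965 against 6096, and 1461 against 2924). With ZEB1 the metallothionein genes Mt1 (20588 against 7184) and Mt2 (20799 against 9810) were higher, 2 of 14, with a median of 0.11. Mt2 was at a log2 ratio of 0.97 under quantile normalization and 0.58 scaled to the control RNA, which left Mt1 as the 1 counted.

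Of 29 paralogs of the members 12 to 15 reached the floor and were compared. Slc24a4, an exchanger gene related to Slc24a5, was higher with SNAIL2 (350 against 137 in BRAF-on, at a log2 ratio of 0.01 scaled to the control RNA) and under the floor with TWIST1 and ZEB1, at least 2.15-fold lower in each. Its relative Slc24a3 was higher with TWIST1 (754 against 230). With ZEB1 3 of 14 were higher and 1, Slc24a4, lower. The higher ones were Kcnj14 (224 against 58.8, under the floor), Slc8b1 (869 against 371) and Trpm4 (237 against 113). With scaling to the control RNA, Kcnj14 (a log2 ratio of 1.31) was the 1 of 12 still higher, with Slc8b1 at 0.72 and Trpm4 at 0.57, and 2 were lower. Medians were 0.04 with BRAF activation, -0.04 with ZEB2, 0.18 with SNAIL2, 0.09 with TWIST1 and 0.31 with ZEB1. Those with BRAF activation and TWIST1 turned to -0.02 under quantile normalization and -0.01 under centring.

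Machinery that delivers transporters to melanosomes had 21 of 22 listed genes with a probe set. Rab38, a small GTPase of this route, was higher with ZEB2 (4125 against 1496 in BRAF-on, the 1 of 21) and SNAIL2 (5484), and lower with TWIST1 (249). Its relative Rab32 was higher with SNAIL2 (5095 against 2007) and lower with TWIST1 (847) and ZEB1 (947, the 1 of 21 lower). With SNAIL2, a size of 2-fold or more was reached upwards by 4 of 21, Hps3 (1601 against 638) among them, and downwards by 2, Vamp7 (741 against 1761) among them. Scaled to the control RNA, Rab38 with SNAIL2 was at a log2 ratio of 0.53, Rab32 at -0.00436 and Hps3 at -0.02. With TWIST1 2 of 20 were lower. The medians were -0.06 with BRAF activation, 0.18 with ZEB2, 0.54 with SNAIL2, -0.08 with TWIST1 and 0.10 with ZEB1.

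**Figure D4:**
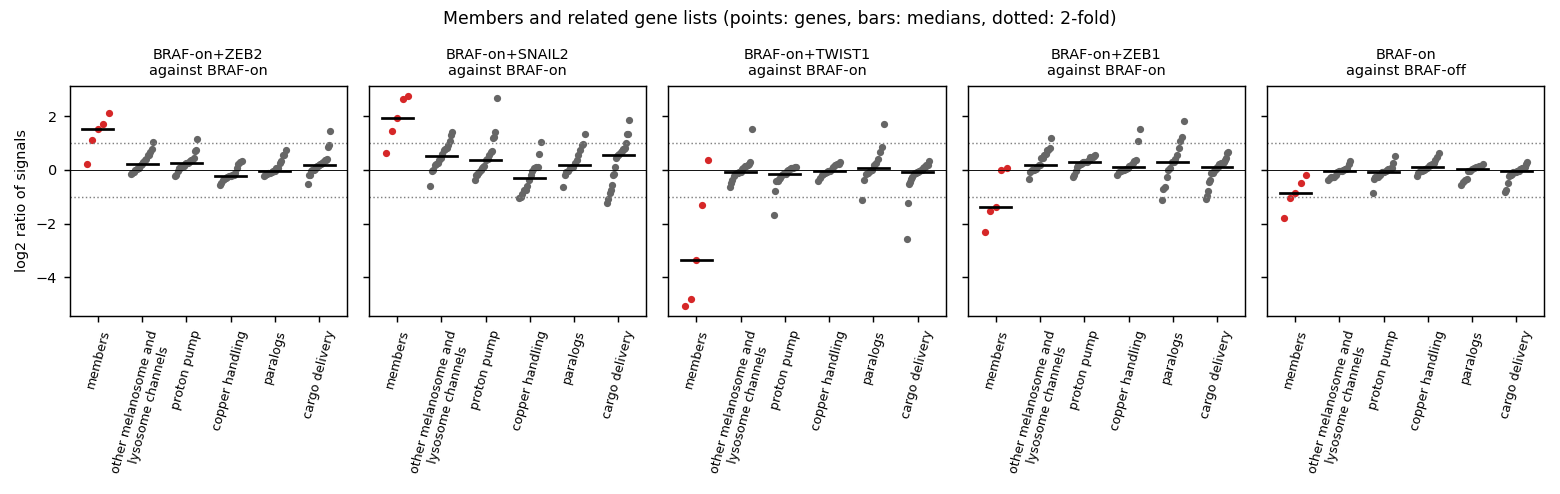
Log2 ratio (vertical axis) of the 5 measured members and of the genes of 5 related lists in each comparison; points are genes, bars are medians, and dotted lines mark 2-fold. The members' median is 1.94 with SNAIL2 and -3.35 with TWIST1, where the medians of the lists lie between -0.29 and 0.54 and between -0.15 and 0.09. The melanocyte markers, not drawn here, have medians of 1.42 with SNAIL2 and -4.85 with TWIST1. Scaled to control RNA the SNAIL2 medians of the lists lie between -1.56 and -0.60 and that of the members at 0.59.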

How the data were processed

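Labelled RNA of melan-a cells was read on 6 arrays of the 1-colour Affymetrix type. The authors deposited linear signal intensities; the submitters' processing notes name MAS5 and Affymetrix Expression Console 1.1. The values of each array had a 2% trimmed mean of 500.0. No detection calls were used, and dim signals are the less certain ones.

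Of 45037 probe sets other than the 64 controls, the platform annotation gave 34945 a single gene, 932 more than 1 gene and 9160 no gene. Only the first kind was used, and a RefSeq table of GRCm38.p6 held 34741 of them by Entrez number. The brightest probe set by mean log2 signal stood for a gene, and values under the median of all values, 63.7, were raised to it. A gene was compared where at least 1 of 2 arrays reached this floor, and counted at 2-fold. No test was possible with 1 array per group. The members, gene lists and naming rule were chosen with earlier results of these data known. Named by that rule were all members, list genes at least 2-fold apart (up to 4 per list and comparison), the 3 genes most like each member, melanocyte markers and the introduced factors. Promoters came from RefSeq, and those used held 5 of 6 members, without Slc45a2. Keratinocyte markers had a summed signal between 371 and 563 on all arrays. The calling was also run on simulated data, with large changes planted in bright genes only. That run could not show how calls near 2-fold or near the floor behave. Alternatives were quantile normalization, centring, other floors, other probe set choices, 3-fold, BRAF-off as the array compared with and, chosen after seeing the data, scaling to poly-A controls. Computation used numpy 2.4.6 and pandas 2.3.3 under Python 3.11.15, and plots matplotlib 3.10.9.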

Additional observations from a re-analysis of the deposited data

How the results depend on the processing

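Of 243 single log2 ratios of members under the alternatives, 226 kept their side of 2-fold, 16 fell under it and 1 passed it in the opposite direction (Kcnj13 with ZEB1 against BRAF-off, -1.70). In all 8 changed sign, the other 7 staying within 2-fold: Atp7a with ZEB1 under centring (-0.01), against BRAF-off (-0.20) and with poly-A scaling (-0.50), and with that scaling also Atp7a with BRAF activation (0.06), ZEB2 (-0.20) and SNAIL2 (-0.71) and Kcnj13 with ZEB1 (-0.42). Quantile normalization and centring changed no count of members, and every median of theirs kept its sign within 1.5 times. Dropping the less specific probe sets could change no member value. The only such probe set of a member, 1418774_a_at of Atp7a, was not the one used for its gene. The 25 ratios of that setting are among the 226 that kept their side. Floors mattered most with TWIST1, where the median of -3.35 was -2.30 with the floor at the 60th percentile, -1.18 at the 75th, -6.42 without a floor and -2.24 where each gene's probe sets were summarised by their median. Raising the floor to the 75th percentile left 2 members lower with TWIST1, 2 with ZEB1 and 1, Oca2, with BRAF activation. It left 3 higher with ZEB2, since fewer values then lie above it. At the 60th percentile 3 were lower with TWIST1. With BRAF activation 1 member, Kcnj13, was lower with the floor as a pseudocount, at 3-fold and with poly-A scaling. At 3-fold, 2 members were higher with ZEB2 and 1 lower with ZEB1. Against BRAF-off, 0 members were higher with ZEB2 and 2 with SNAIL2, and the medians were 0.65 with ZEB2, 0.996 with SNAIL2, -4.41 with TWIST1 and -2.42 with ZEB1. With poly-A scaling, 3 members were higher with ZEB2 and 2 with SNAIL2. Their median with SNAIL2 was then 0.59, beside -1.17 over all genes, and this setting was chosen after seeing the data. The share of all genes counted is not given for poly-A scaling, 3-fold, the pseudocount and the other floors. The member counts under these settings stand without it. The causes were not tested. Slc24a5 could not be recomputed without a probe set. No paired analysis was possible because each group has 1 array. Bounds with TWIST1 are limited by signal over background.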

Other observations

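Without the array labelled TWIST1, on which the 4 variable members lay under the floor, the genes most like them over the remaining 5 arrays were largely others. Dct, the dopachrome tautomerase gene of melanin synthesis, was nearest to Trpm1 (r = 0.9998 over 5 arrays, 0.922 over 6), with Mitf also among the nearest 3 (0.998). Nearest to Oca2 were Chsy3 (0.9999), the growth factor receptor gene Met (0.999) and Hps3 (0.999). Nearest to Slc45a2 were Add3, Syngr1 (both 0.9997) and Sfxn1 (0.999). Kcnj13 kept Mob3b (0.997) behind Ankrd2 (0.999). Atp7a was nearest to Camk2n2, Sf3a2 and Huwe1 (0.998, 0.998 and 0.996). This setting was chosen after seeing the data.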
